A study of Rattus norvegicus with 6 samples.

Results

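The 10 genes described here encode enzymes that remove superoxide and peroxides, and 1 copper chaperone, Ccs, which serves Sod1. The enzymes are the superoxide dismutases Sod1, Sod2 and Sod3, catalase (Cat), the glutathione peroxidases Gpx1 and Gpx4, and the peroxiredoxins Prdx3, Prdx5 and Prdx6. All 10 genes were taken by gene symbol from the platform annotation. This gave 11 probe sets of the 31042 that were not controls, or 10 of the 14217 genes named there. A probe set is a group of oligonucleotides on the array read as 1 signal, and 436 of the 31042 carried several gene symbols. Expression was measured with the Affymetrix Rat Genome array in primary astrocytes cultured from rat spinal cord. The NonTG group (3 arrays) came from cultures without a transgene, and the hSOD1G93A group (3 arrays) from transgenic rats that carry human SOD1 with the substitution G93A, which is linked to familial amyotrophic lateral sclerosis. Both groups were confluent monolayers kept for 24 h in supplemented L15 medium, and 5 ug of total RNA was labelled per array. The arrays of each group carry the letters A, B and C. The promoter and copy number of the transgene, the age of the animals, and whether a letter stands for 1 animal or a pool are not given in the sources used here, so the p-values reflect the spread among 3 arrays a group, and part of that spread could be technical.

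Superoxide is a by-product of mitochondrial respiration and of oxidases. Superoxide dismutases turn it into oxygen and hydrogen peroxide: the copper and zinc enzyme Sod1 works in the cytosol, the manganese enzyme Sod2 in the mitochondrial matrix and Sod3 outside the cell. Catalase in peroxisomes, glutathione peroxidases and peroxiredoxins then break down hydrogen peroxide or lipid peroxides. Disease-linked mutations of human SOD1 are known to act mainly through a toxic property of the mutant protein, and astrocytes that carry them can harm motor neurons.

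Values are MAS5 signals on a linear scale, and the trimmed mean was nearly equal on all 6 arrays. Differences are hSOD1G93A minus NonTG on the log2 scale, with standard errors (SE) and 95% intervals from limma's test fitted to the 18625 probe sets above a filter on dim signals (a mean of 66.7). The adjusted p is Benjamini-Hochberg adjusted over all of them, with a threshold of 0.05. In limma 0 of the 18625 (0.0%) passed, and 474 (2.54%) had an unadjusted p below 0.05. The groups did not overlap in 1398 probe sets (7.51%), of which 745 (4.0% of all tested) were higher in hSOD1G93A. Of those with an unadjusted p below 0.05, 250 (1.34% of all tested) were higher. All 9 astrocyte markers on the array, of which Fabp7, Gja1 and Aqp4 were the brightest, were above the filter, while 10 of 12 microglia and macrophage markers were below it, Aif1, Cd68, Itgam and Csf1r among them. The ratio of 3' to 5' signal, a sign of RNA integrity, lay between 0.954 and 1.01 for Gapdh and between 1.1 and 1.19 for actin.

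Of the 11 member probe sets 10 were above the filter, 1 for each gene. In limma 0 of these 10 passed after adjustment, each with an adjusted p of 0.9997, and 1, that of Sod1, had an unadjusted p below 0.05. It was also the only 1 of the 10 whose groups did not overlap. Set beside the 7.51% over all probe sets, 1 of 10 is near the background. The differences of 6 members were above 0 and those of 4 below it, with a median of 0.023, against 0.0070 over all probe sets tested.

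**Figure D1:**
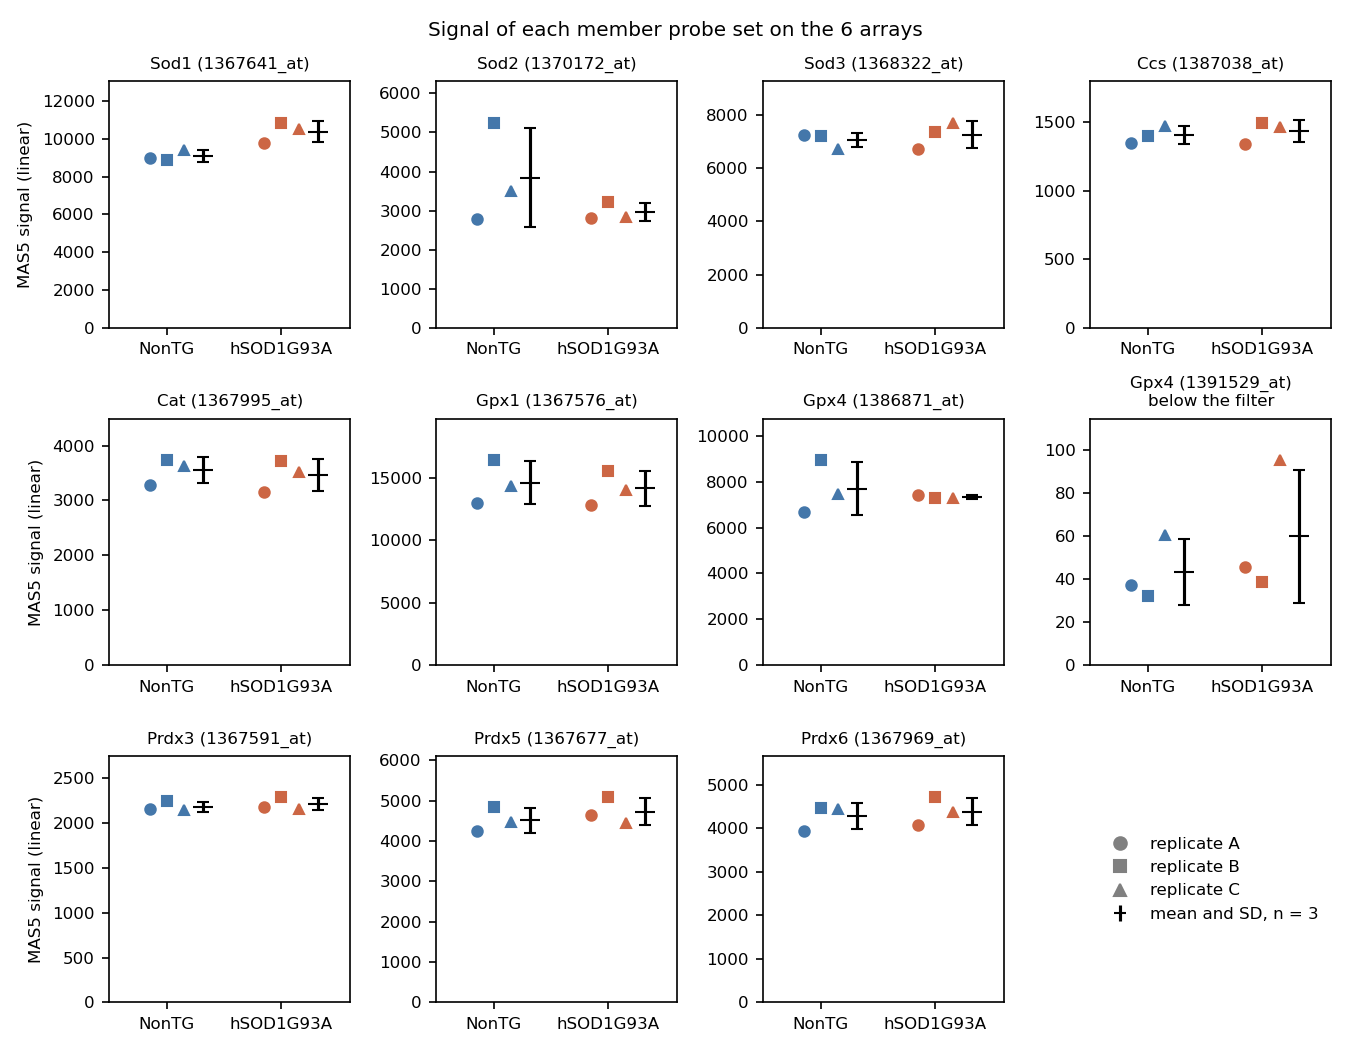
MAS5 signal (linear axis from 0) of the 11 member probe sets in 3 NonTG and 3 hSOD1G93A arrays, with replicates A, B and C as circles, squares and triangles and the mean and SD (n = 3) in black. Groups are apart for Sod1, where NonTG signals reach 9430 and hSOD1G93A signals start at 9781, and overlap in every other panel.

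Sod1 and Sod2 had the largest differences among the tested members, in opposite directions, and the sequences upstream of them are shown for that reason. Each is the 250 bases before the annotated transcription start in RefSeq (build GRCr8). Sod1 lies at chr11:42942573-42942822 on the plus strand and Sod2 at chr1:50050169-50050418 on the minus strand, both printed 5′ to 3′ along the gene. Capitals mark matches on either strand to 4 motifs. The TATA box was searched as TATAAA. For the GC box the letters were GGGCGG. The CCAAT box was searched by the letters of its name. The core of the antioxidant response element was searched as TGACNNNGC, where N is any base.
Sod1: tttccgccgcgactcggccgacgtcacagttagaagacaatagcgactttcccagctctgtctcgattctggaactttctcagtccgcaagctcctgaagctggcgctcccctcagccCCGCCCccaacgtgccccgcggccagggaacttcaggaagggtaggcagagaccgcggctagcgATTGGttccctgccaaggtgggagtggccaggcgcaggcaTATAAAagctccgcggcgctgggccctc
Sod2: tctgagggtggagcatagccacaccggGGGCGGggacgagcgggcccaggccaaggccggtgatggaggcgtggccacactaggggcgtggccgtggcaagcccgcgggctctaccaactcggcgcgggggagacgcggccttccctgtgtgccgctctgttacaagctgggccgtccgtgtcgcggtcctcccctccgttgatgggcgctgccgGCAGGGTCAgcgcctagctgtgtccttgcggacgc
The Sod1 window held a TATA box whose first base was 28 bases before the start, an inverted CCAAT box at 68 bases and an inverted GC box at 132 bases. In the Sod2 window there was a GC box at 223 bases and an inverted core of the antioxidant response element at 35 bases, and no match to the other 2 motifs. Of the 10 members 8 had an entry in the promoter table. The TATA box occurred in Sod1 alone and the antioxidant core in Sod2 alone, while 7 of the 8 genes held a GC box and 3 (Sod1, Cat and Gpx4) a CCAAT box. Over all 33469 windows of this length the shares were 12.9% for the TATA box, 10.1% for the antioxidant core, 30.5% for the GC box and 34.0% for the CCAAT box. These are shares of windows, while the 8 genes had 10 windows and a gene counted if any window matched. The bases G and C made up 55.2% to 71.6% of the member windows, against a median of 51.2% over all windows. A GC box holds only these bases, so the counts are not like for like. A match of letters is a description and shows no binding.

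Sod1, the rat gene of the enzyme whose human form is the transgene, had signals of 8982, 8855 and 9430 on the NonTG arrays A, B and C and of 9781, 10860 and 10510 on the hSOD1G93A arrays. All hSOD1G93A arrays lay above all NonTG arrays, with means of 9089 ± 302 (SD, n = 3) and 10384 ± 551. The difference was 0.19 (SE 0.069, 95% interval 0.036 to 0.35), or 1.14-fold, with an adjusted p of 0.9997 in limma. It was higher in hSOD1G93A within each letter, by 0.12 in A, 0.30 in B and 0.16 in C. With the letter as a block the unadjusted p of Sod1 was 0.0083 and the adjusted p 0.8344 in limma. Without the intensity trend its unadjusted p in limma was 0.092. With 1 array left out, limma's unadjusted result for Sod1 no longer passed 0.05 in 4 of 6 cases, without NonTG A, NonTG B, hSOD1G93A B or hSOD1G93A C, with differences of 0.18, 0.17, 0.16 and 0.18. Of the 385 probe sets within 0.5 of its mean log2 signal, 6.23% had a difference at least as large in either direction. The Sod1 probe set, 1367641_at, belongs to an array of rat transcripts, and whether it also takes up the human one was not tested, so it does not check the labels.

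Some cell type markers were also apart between the groups, with 0 called after adjustment in limma. Over all 10473 genes, each read by its brightest probe set, 2.64% had an unadjusted p below 0.05 in limma and 7.52% had no overlap. Of 9 tested astrocyte markers 5 were above 0 and 4 below, with a median of 0.056. Among them Slc1a2 (0.47, SE 0.23) was higher in hSOD1G93A without overlap, with dim NonTG signals of 79.5, 98.2 and 103. Of the oligodendrocyte lineage 5 of 6 tested markers were above 0 and 1 below, with a median of 0.44, and 2 of the 6, the myelin genes Mag (0.63, SE 0.27) and Ugt8 (0.72, SE 0.27), had an unadjusted p below 0.05 and no overlap. Both were dim, with NonTG signals down to 78.1 for Mag and 58.3 for Ugt8, beside the filter level of 66.7. The summed signal of the 10 markers on the array was 5675, 5898 and 5283 in NonTG and 6231, 7691 and 5801 in hSOD1G93A, higher within every letter. Most of the rise in A and B was that of Mbp, whose groups overlapped (1501, 1089 and 592 against 2145, 2863 and 790). Cnp, the 1 marker below 0 (-0.18, SE 0.10), was lower in hSOD1G93A within every letter. Of 9 tested fibroblast and meningeal markers 4 were above 0 and 5 below, with a median of -0.091. The 3 with an unadjusted p below 0.05 were all higher in hSOD1G93A without overlap: the matrix proteoglycan Dcn, Aldh1a2 (1.15, SE 0.23) and Fbln1 (0.41, SE 0.15). Dcn had signals of 59.1, 92.3 and 63.9 in NonTG and 667, 283 and 349 in hSOD1G93A, a difference of 2.52 (SE 0.33, adjusted p = 0.4004 in limma), while the bright collagen Col1a2 was lower without overlap (-0.13, SE 0.065). The fibroblast sum, to which the bright collagens contribute most, ran from 60883 to 61960 in NonTG and 45686 to 62743 in hSOD1G93A. All 8 tested pericyte and smooth muscle markers were below 0, with a median of -0.27. Of these 1, Lmod1 (-0.58, SE 0.21), had an unadjusted p below 0.05 in limma, and its groups overlapped. The summed signal of the 9 markers on the array was 27303, 23687 and 29564 in NonTG and 29156, 17631 and 25130 in hSOD1G93A. It was higher in hSOD1G93A within A and lower within B and C. Neuron markers were 4 above and 5 below 0 of 9 (median -0.032), with sums of 6365 to 7557 and 6774 to 7930. Among them Map2 (0.12, SE 0.088) was higher in hSOD1G93A without overlap. Of 2 tested endothelial markers 1 was above 0 and 1 below, with sums of 386 to 448 and 356 to 442. These marker genes were named after their values were seen, and their part in the differences of the members was not tested.

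Ccs (1387038_at), the chaperone that hands copper to Sod1, did not share this separation. NonTG signals were 1350, 1398 and 1475, and hSOD1G93A signals 1344, 1498 and 1467, so the groups overlapped over nearly their whole range. The difference was 0.029 (SE 0.090, interval -0.17 to 0.23).

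Sod3 (1368322_at), the secreted superoxide dismutase, had overlapping groups. It read 7239, 7186 and 6733 in NonTG and 6702, 7353 and 7708 in hSOD1G93A, and the lowest and the highest value were both hSOD1G93A arrays. The difference was 0.039 (SE 0.076, interval -0.13 to 0.21), with -0.11 within A, 0.033 within B and 0.20 within C. Leaving out hSOD1G93A C turned it to -0.0060.

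Sod2 (1370172_at), the mitochondrial superoxide dismutase and a gene known to respond to inflammatory cytokines, varied most among the tested members. Signals in NonTG were 2781, 5252 and 3498, against 2823, 3224 and 2848 in hSOD1G93A. NonTG B and C were the 2 highest arrays and NonTG A the lowest of all 6, so the hSOD1G93A arrays lay inside the NonTG range. The coefficient of variation was 33.1% in NonTG and 7.57% in hSOD1G93A. The difference was -0.33 (SE 0.19, interval -0.76 to 0.11), or 0.798-fold, with an adjusted p of 0.9997 in limma. Without NonTG B it was -0.076 (SE 0.12), and without NonTG A it was -0.53 (SE 0.16). Within the letters it was 0.022 in A, -0.70 in B and -0.30 in C. With the letter as a block the SE was 0.117 and the unadjusted p 0.0201, with an adjusted p of 0.8344 in limma. This made 2 members below an unadjusted p of 0.05, where 5.85% of all probe sets (1090) were.

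The spread of Sod2 around its group means was 0.337 (residual SD, log2), against a median of 0.108 for the 1224 probe sets of similar brightness. A difference of its size or larger was seen in 1.47% of those. The summed signal of the 12 microglia and macrophage markers was 388, 576 and 551 in NonTG and 440, 625 and 523 in hSOD1G93A. It was lowest in A within both groups as for Sod2, though the highest sum was that of hSOD1G93A B. Of these markers 10 were below the filter, so the sum is largely dim signal. Among all tested probe sets 17.4% were lowest on the A array of both groups. The part of these cells in the result was not tested. In a culture measured in bulk, fewer cells of a type and less RNA per cell cannot be told apart.

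**Figure D2:**
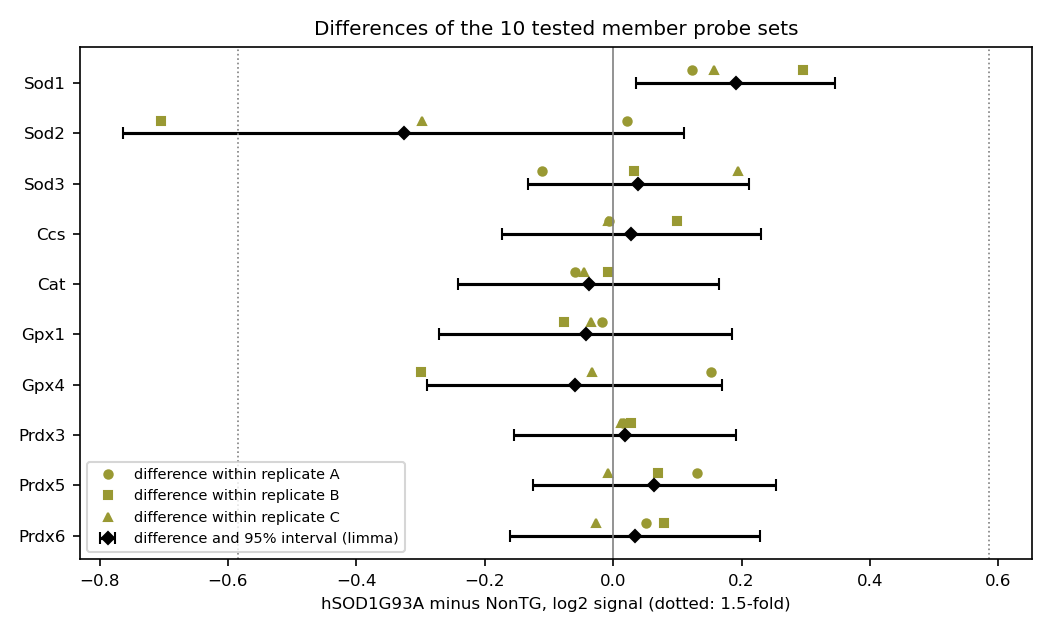
Difference of log2 signal, hSOD1G93A minus NonTG, for the 10 tested member probe sets, with 95% intervals from limma (diamonds and bars) and the difference within each replicate letter (small symbols). The intervals of 9 members lie inside the dotted lines at 1.5-fold, and that of Sod2 reaches beyond the lower one.

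Catalase (1367995_at), the peroxisomal enzyme that splits hydrogen peroxide into water and oxygen, was at 3286, 3741 and 3626 in NonTG and at 3153, 3719 and 3512 in hSOD1G93A. Its difference was -0.038 (SE 0.090, interval -0.24 to 0.17). Each hSOD1G93A array was slightly below the NonTG array of its letter, by -0.059, -0.0086 and -0.046. The highest and lowest letter means were 0.21 apart, a range that is not the same measure as a group difference. The interval of 0.846- to 1.12-fold bounds how far the group means could differ.

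Gpx1 (1367576_at), the main cytosolic glutathione peroxidase and a selenoprotein, was read at 13021, 16463 and 14385 in NonTG and at 12869, 15605 and 14041 in hSOD1G93A. The same order, A lowest and B highest, held in both groups. The difference was -0.043 (SE 0.10, interval -0.27 to 0.19), and within the letters it was -0.017, -0.077 and -0.035. With quantile normalization it was 0.018, so its sign was not settled.

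Gpx4, the selenoenzyme that reduces lipid peroxides in membranes and holds back ferroptosis, had 6677, 8950 and 7462 in NonTG against 7426, 7271 and 7290 in hSOD1G93A (probe set 1386871_at). All 3 hSOD1G93A arrays lay inside the NonTG range, with means of 7696 ± 1154 (SD, n = 3) in NonTG and 7329 ± 84.7 in hSOD1G93A. With 3 arrays in each group this contrast in spread was not tested. The difference was -0.060 (SE 0.10, interval -0.29 to 0.17), and 0.054 without NonTG B. A second Gpx4 probe set (1391529_at) was below the filter, at 37.1, 32.1 and 60.5 in NonTG and 45.6, 38.4 and 95.3 in hSOD1G93A. Fitted without the filter it differed by 0.40 (SE 0.53), with an interval that spans 0.588- to 2.98-fold.

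Prdx3 (1367591_at), the peroxiredoxin of the mitochondrial matrix, was the steadiest member. It read 2163, 2248 and 2143 in NonTG and 2185, 2292 and 2162 in hSOD1G93A, with coefficients of variation of 2.56% and 3.13%. The difference was 0.018 (SE 0.077, interval -0.15 to 0.19), and hSOD1G93A was above NonTG by 0.015, 0.028 and 0.012 within the letters. The residual SD was 0.041, against a median of 0.117 for 1833 probe sets of similar brightness. So the mitochondrial pair of superoxide and peroxide enzymes, Sod2 and Prdx3, had the largest and the smallest residual SD among the 10 tested members.

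Prdx5 (1367677_at), found in mitochondria, peroxisomes and cytosol, had signals of 4237, 4844 and 4465 in NonTG and 4635, 5087 and 4441 in hSOD1G93A. Prdx6 (1367969_at), a peroxiredoxin with a single active cysteine that also acts on phospholipids, had 3933, 4465 and 4445 against 4074, 4715 and 4362. The groups overlapped for both genes. For Prdx5 the difference was 0.064 (SE 0.084, interval -0.13 to 0.25), and for Prdx6 it was 0.034 (SE 0.087, interval -0.16 to 0.23). The 6 peroxide-removing enzymes had 0 calls in limma, and the intervals of their tested probe sets reached no further than 1.22-fold in either direction.

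The 95% interval stayed within 1.5-fold in both directions for 9 of 10 members, the exception being Sod2 (down to 0.589-fold). Over all tested probe sets this share was 63.6%, and it was 95.3% among the 3598 at least as bright as the dimmest tested member. The median SE of the members was 0.088, against 0.093 for those 3598 and 0.16 for all, so their precision was near that of other bright probe sets. Differences under 0.1 in size were found for 8 of 10 members, against 71.2% of those 3598.

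The highest and lowest letter means of Gpx1 were 0.31 apart and those of Cat 0.21, beside group differences of -0.043 and -0.038. Such a range, over letter means of fewer arrays, tends to exceed a group difference even without a letter effect. The sizes therefore do not show that letters differed more than groups. Signals were highest on the B array of both groups for 6 of 10 members (Sod2, Cat, Gpx1, Prdx3, Prdx5 and Prdx6), where 16.2% of all tested probe sets, and 22.3% of those as bright, had this pattern. They were lowest on the A array of both groups for 5 (Sod2, Ccs, Cat, Gpx1 and Prdx6), against 17.4% and 20.3%. The median centred log2 value of the members (each gene minus its mean over the 6 arrays) was -0.12 and -0.083 on the A arrays, 0.059 and 0.082 on the B arrays, and 0.00027 and -0.0094 on the C arrays (NonTG first). In limma's F test of the letters 2 members, Gpx1 (adjusted p = 0.0873) and Sod2 (adjusted p = 0.18), were below 0.05 before adjustment, as were 15.6% of all probe sets. After adjustment 0 members passed, where 1.05% of all probe sets did. The summed signal of the 9 astrocyte markers moved the same way, at 101076 and 95259 on the A arrays, 114931 and 113892 on the B arrays and 104182 and 109869 on the C arrays. That of the 9 pericyte and smooth muscle markers on the array was lowest on the B arrays, at 23687 and 17631, against 27303 and 29156 in A and 29564 and 25130 in C. The part of these cell types in the pattern was not tested, and what the letters stand for is not given in the sources used here.

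**Figure D3:**
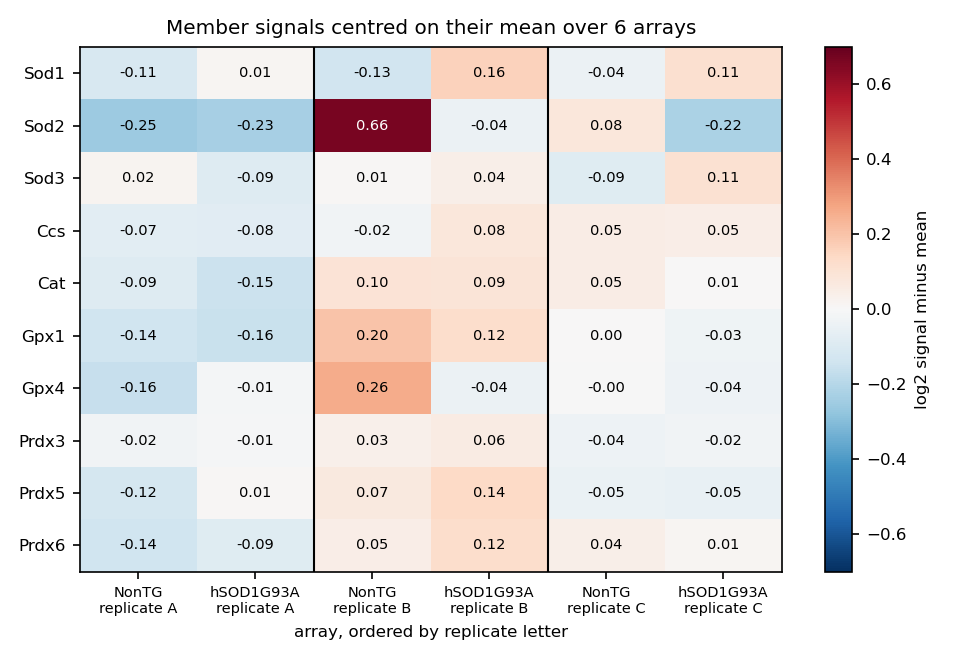
Log2 signal of the 10 tested members minus each gene's mean over the 6 arrays, with arrays ordered by replicate letter and the value printed in each cell. Sod2 in NonTG B, at 0.66, is the farthest from its mean, and Cat, Gpx1 and Prdx6 are below 0 on both A arrays and above 0 on both B arrays.

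Genes around these enzymes were followed in 5 lists with 57 tested genes, each read by its brightest probe set. In limma 0 of the 57 passed after adjustment and 0 had an unadjusted p below 0.05, where 2.64% of all 10473 genes did. Groups were without overlap for 3 of the 57, against 7.52% of all genes. Other peroxidases and thiol reductases had 7 of 19 tested genes above 0 and 12 below, with a median of -0.039 against 0.0030 over all genes. Gpx7, a peroxidase of the endoplasmic reticulum, had NonTG signals of 1723, 1552 and 1920 and hSOD1G93A signals of 1519, 1467 and 1510, a difference of -0.20 (SE 0.098) without overlap. Txnrd1, the cytosolic thioredoxin reductase, differed by 0.14 (SE 0.087), and Txn1, its substrate thioredoxin, by -0.11 (SE 0.075), both with overlap.

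Selenoprotein synthesis, on which Gpx1 and Gpx4 depend, had 5 of 9 tested genes above 0 and 4 below, with a median of 0.035. Eefsec, the elongation factor that brings selenocysteine to the ribosome, was at 323, 364 and 324 in NonTG and at 367, 436 and 406 in hSOD1G93A. These groups did not overlap, with a difference of 0.26 (SE 0.13). Sephs2, which makes the selenium donor, differed by 0.14 (SE 0.11), and Sephs1 by 0.16 (SE 0.13).

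In the list of copper, zinc and manganese supply, 2 of 10 tested genes were above 0 and 8 below, with a median of -0.059. Atox1, the chaperone that carries copper to the secretory pathway, differed by -0.075 (SE 0.091). The metal transporters Slc39a8 (-0.34, SE 0.27) and Slc31a2 (-0.22, SE 0.21) were dimmer and less precise. Peroxisome biogenesis genes, which make and fill the organelle that holds catalase, had 4 of 13 above 0 and 9 below, with a median of -0.068. Pex2 was at 926, 880 and 935 against 1040, 1054 and 967, a difference of 0.16 (SE 0.093) without overlap, while Pex5, the import receptor, differed by -0.13 (SE 0.12) and Pex11g by -0.31 (SE 0.28). Of the oxidases that release hydrogen peroxide 6 of the 11 on the array were tested, 2 above 0 and 4 below, with a median of -0.12. They included the endoplasmic reticulum oxidases Ero1a (-0.21, SE 0.15) and Ero1b (0.18, SE 0.19) and the peroxisomal Acox3 (-0.36, SE 0.36).

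The genes nearest in pattern to Sod1 and to Sod2 were sought among 10472 other tested genes, by the root mean square distance of centred log2 values over the 6 arrays. For Sod1 they were Habp4, an RNA-binding protein, at a distance of 0.027, Hbs1l, a factor of ribosome rescue, at 0.029 and Toe1, a nuclear RNA deadenylase, at 0.032. Habp4 had signals of 523, 513 and 535 in NonTG and 586, 639 and 628 in hSOD1G93A, a difference of 0.24 (SE 0.11). Nearest to Sod2 were Ube2l6, the conjugating enzyme for the ubiquitin-like ISG15, at 0.074, Znfx1, a zinc finger helicase, at 0.077, and the centrosomal gene Cep43 at 0.1. Ube2l6 had signals of 422, 761 and 521 in NonTG and 445, 544 and 461 in hSOD1G93A, highest in NonTG B as for Sod2. With 6 arrays and this many genes, near neighbours are found for any pattern, and the distances are descriptions.

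**Figure D4:**
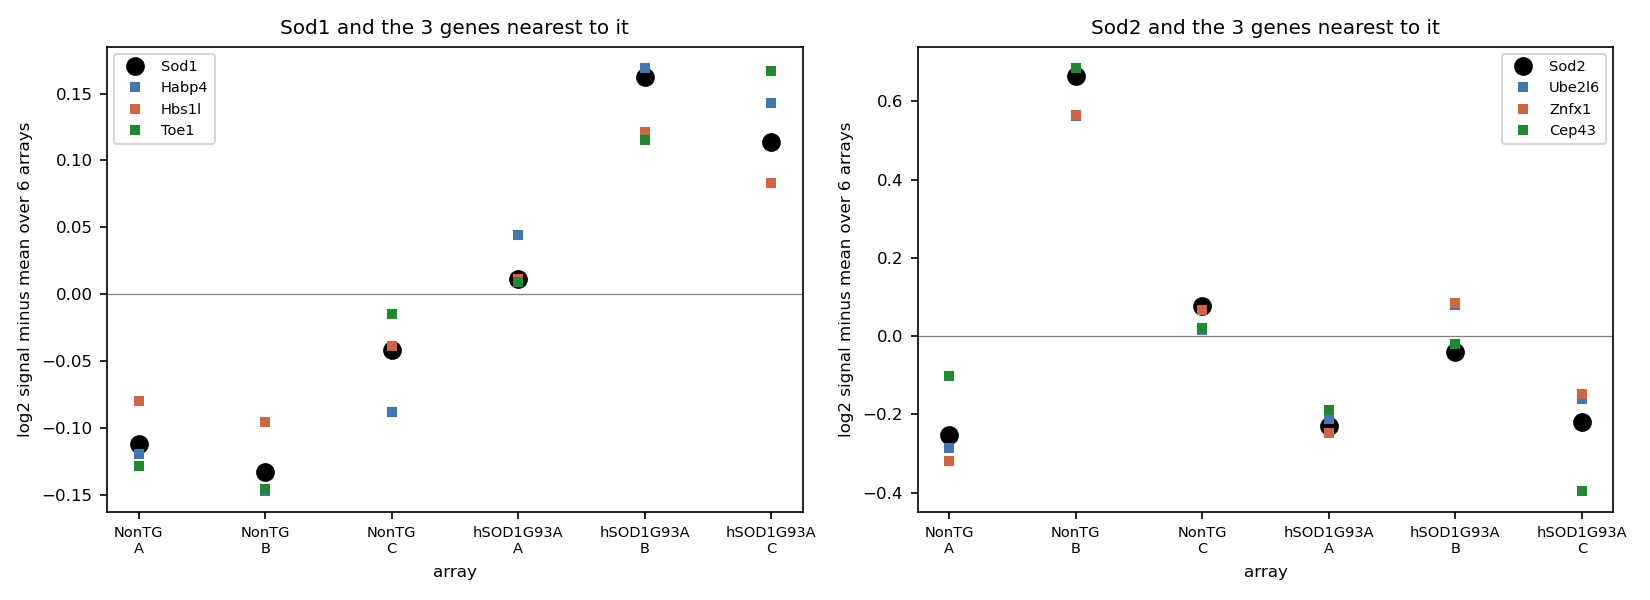
Log2 signal minus the mean over the 6 arrays for Sod1 and its 3 nearest genes (left) and Sod2 and its 3 nearest genes (right), 1 position per array. Sod1 is below 0 on the 3 NonTG arrays and above 0 on the 3 hSOD1G93A arrays, and Sod2 reaches 0.66 on NonTG B.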

How the data were processed

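Gene expression was measured on 6 arrays of rat spinal cord astrocytes, 3 NonTG and 3 hSOD1G93A. Each deposited intensity is a linear MAS5 signal; the submitters' processing notes name GCOS 1.4 as the authors' software. A GC-RMA step on log values is described in the design text, whereas these values were found to be linear, with a mean of 500.16 to 500.17 on every array after trimming the extremes. Such scaling leaves differences in the shape of the distribution between arrays, so quantile normalization was run as an alternative.

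Log2 was taken with no pseudocount, 57 control probe sets were left out, and probe sets at or below the 40th percentile of mean log2 signal were filtered. limma 3.58.1 in R 4.3.3 (lmFit, eBayes with an intensity trend, two-sided) compared the groups, and the fit was tested on simulated data. A permutation of 3 against 3 arrays cannot give a p below 0.1. Precision is limited by how many arrays there are. The named genes were all member probe sets, the 3 genes with the smallest p in each function list, the 3 brightest genes of each cell type list (all 3 printed for astrocytes only), and the 3 nearest in pattern to Sod1 and Sod2. Cell type markers with an unadjusted p below 0.05 in limma or without overlap were named as well, and so were picked by their group difference. The members and lists were chosen with earlier results of these data known. Cell type lists are given as summed signals of their markers.

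Same-letter arrays of the 2 groups had correlated deviations from their group means (0.30 for A, 0.25 for B, 0.20 for C). For different letters the correlations were -0.28 to 0.025. All 3 same-letter pairs were over 0.1, so differences within letters are given, on the evidence of the data and not of a label. The main fit left the letter out, and SEs, intervals and p-values are from it unless the letter is named. With the letter as a block the SE of Gpx1 was 0.049 in place of 0.10. That of Sod2 was 0.117 in place of 0.19. Alternatives were the normalization, a pseudocount of 32, the filter, the variance model, array weights, the replicate letter as a block, and each array left out. The F test of the letters was added later. Promoter windows are from RefSeq (GRCr8); proteins were not used here.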

Additional observations from a re-analysis of the deposited data

How the results depend on the processing

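In limma 0 member probe sets and 0 of all probe sets passed the adjusted threshold under any of the 14 alternatives. The direction of Sod1 (0.16 to 0.24), Sod2 (-0.53 to -0.076) and Prdx5 (0.0092 to 0.12) held under all of them. With quantile normalization Gpx1 turned to 0.018. Leaving out 1 array at a time, differences ran from -0.12 to 0.046 for Gpx1, -0.0071 to 0.039 for Prdx3, -0.026 to 0.086 for Prdx6, -0.093 to 0.028 for Cat, -0.0060 to 0.095 for Sod3, -0.16 to 0.054 for Gpx4 and -0.0027 to 0.076 for Ccs, so the signs of these members were not settled. The cause was not tested.

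Among the members, the count with an unadjusted p below 0.05 (1, Sod1) was 0 without the intensity trend, 2 with the letter as a fixed replicate block, and 0 to 1 with an array left out: 0 without NonTG B, hSOD1G93A B or hSOD1G93A C, and 1 without NonTG A, where it was Sod2 in place of Sod1. The count without overlap (1) was 1 to 3 with an array left out, 3 without NonTG A (Sod1, Sod2 and Gpx4) and 2 without hSOD1G93A A (Sod1 and Sod3), where 20.0% and 22.6% of all tested probe sets had no overlap, and 14.4% to 15.6% without any other array. Over all probe sets the unadjusted count of 474 was 999 with no filter, 283 with the filter at the 60th percentile, 852 with array weights, 1090 and 1005 with the replicate block as a fixed factor and as a random effect, and 343 to 1185 with an array left out (823 without NonTG A, 1185 without hSOD1G93A A). Filters change how many probe sets are tested. The block changed no adjusted call. The mean over the probe sets of a gene could not differ from the values given, since 0 members had more than 1 tested probe set. The second Gpx4 probe set was below the filter on all settings that kept one, so its difference has little precision.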
